A study of Rattus norvegicus with 9 samples.

Results

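Bdnf, Ntf3, Ntrk2, Ntrk3 and Ngfr encode 2 neurotrophins and 3 neurotrophin receptors, and their mRNA signal was followed across 9 arrays of severed rat dendrites. The members were all probe sets that name only 1 of these genes in the gene table of the array platform. This gave 10 of the 31042 probe sets tested and 5 of the 14217 genes, with 5 probe sets for Ntrk2, 2 for Bdnf and 1 each for Ntf3, Ntrk3 and Ngfr. None of the 10 was shared with another gene.

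Every array carried the amplified RNA of 1 pool of dendrites, which were cut with a glass pipette from untreated hippocampal neurons of Sprague-Dawley rats. The cultures were prepared at embryonic day 19 and were 14 days old, and the labels call the cells pyramidal neurons. A pool held 100, 200 or 400 dendrites taken from several cells, with 3 arrays per pool size that the labels call biological replicates. The study could not tell axons from dendrites by shape, so that a minor part of the neurites in a pool may have been axons. There was no second tissue, genotype or treatment, and pool size was the only labelled difference between the arrays. In a pool, fewer neurites carrying an mRNA and less of that mRNA per neurite cannot be told apart.

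Neurotrophins are secreted growth factors that are made as longer precursors and cut to their mature form. Mature BDNF and NT-4 bind the receptor tyrosine kinase TrkB, the product of Ntrk2, while NT-3, the product of Ntf3, binds chiefly TrkC, the product of Ntrk3. The p75 receptor, the product of Ngfr, has no kinase, binds all mature neurotrophins and, together with sortilin, binds the uncut precursors. In hippocampal neurons BDNF and TrkB are known for their part in synaptic plasticity, and Bdnf and Ntrk2 mRNA have been described in dendrites.

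The signal of a probe set is given in log2 units, as normalised by the authors, and depends on how well its probes bind as well as on the amount of RNA. Genes are therefore placed by their percentile of signal among the 14217 genes of the same array, which is a rank of brightness and not an amount of RNA. Detection calls were not used here, so a low signal cannot be told from background. The value of a gene is the median of its probe sets.

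The gene of highest rank was Ntrk3, with a median percentile of 86.8 over the 9 arrays and a range of 75.4 to 96.9. Ntrk2 followed at 75.7 (40.6 to 81.1), Ntf3 at 74.5 (53.9 to 90.5) and Bdnf at 66.5 (29.0 to 90.2). Ngfr stood last at 28.4 (13.0 to 57.8). Neighbours in this order overlapped in their ranges over the arrays, whereas the ranges of Ntrk3 and Ngfr did not overlap. By median percentile, 4 of the 5 genes lay above the 50th percentile of all genes and 0 lay in the top 5%.

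**Figure D1:**
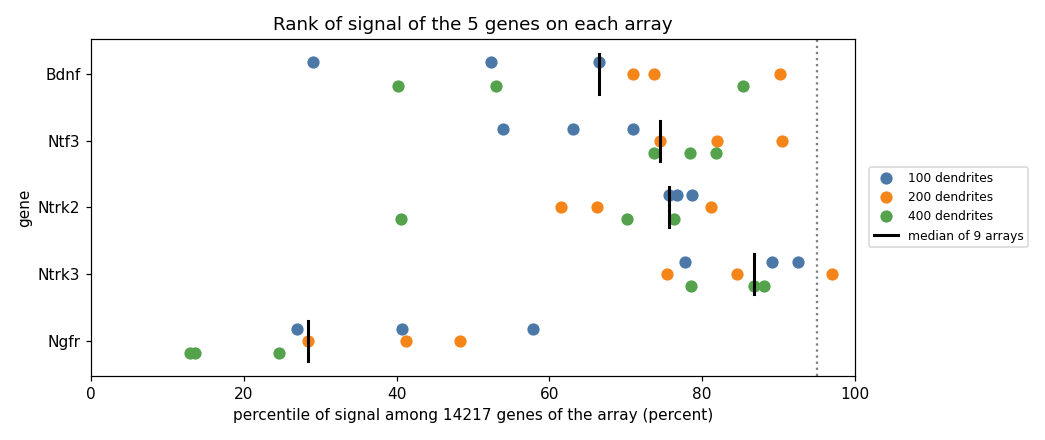
Percentile of the signal of each gene among the 14217 genes of the same array (horizontal axis, percent), with 1 point per array coloured by the number of dendrites in the pool and a black bar at the median of 9 arrays. The dotted line marks the start of the top 5%, which only Ntrk3 passed, on 1 array, and Ngfr lies to the left with a median of 28.4.

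Bdnf, the ligand of TrkB, had 2 probe sets that differed in level and in spread. The brighter one, 1368677_at, read 7.08, 9.51 and 8.86 in pools of 100 dendrites, 9.10, 9.69 and 11.75 in pools of 200, and 8.82, 8.98 and 10.76 in pools of 400. Its lowest and highest arrays were thus 4.67 log2 units apart, and its SD of 1.31 over the 9 arrays was larger than that of 98.0% of all probe sets, whose median SD was 0.607. The dimmer one, 1368678_at, read 6.57, 6.83 and 6.51 in pools of 100, 7.77, 7.02 and 7.38 in pools of 200, and 6.59, 5.47 and 7.45 in pools of 400, with an SD of 0.68. Every pool of 200 was above every pool of 100 for this probe set, as in 3.85% of all probe sets, and the pools of 400 overlapped with both. The brighter probe set had a median percentile of 83.8 among probe sets, and the dimmer one of 33.8, so that the place of Bdnf at 66.5 is a midpoint between unlike readings.

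Over the arrays, the 2 probe sets of Bdnf had a Pearson r of 0.48 (exact permutation p = 0.182, adjusted over 11 pairs p = 0.401) and a Spearman rho of 0.67 (exact permutation p = 0.0589, adjusted p = 0.324). Without the 2 arrays farthest from the median of the brighter probe set, r was 0.49 over 7 arrays, and after subtraction of the mean of each pool size it was 0.36. Pool of 200 replicate 3 and pool of 400 replicate 3 were the 2 highest arrays of the brighter probe set, and in the dimmer one they stood among the 3 highest.

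Ntf3, which encodes NT-3, was represented by 1387267_at. It read 8.02, 7.72 and 8.37 in pools of 100 dendrites, 8.86, 8.50 and 9.60 in pools of 200, and 8.48, 8.92 and 8.69 in pools of 400. The 3 pools of 100 were the 3 lowest of the 9 arrays. Of all genes, 4.05% had every pool of 200 above every pool of 100, and 3.67% had every pool of 400 above them. The share with both was not counted. Ntf3 averaged 8.57 ± 0.54 over all arrays (SD, n = 9), a spread below the median of all probe sets. The remaining ligand measured, Ntf4, which encodes the TrkB ligand NT-4, lay at a median percentile of 72.4 and averaged 8.36 ± 0.75 (SD, n = 9). Its highest array, a pool of 400, read 10.02, and its lowest, a pool of 200, read 7.20.

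Ntrk2, which encodes TrkB, had 5 probe sets. The gene is known to give a full-length receptor with a kinase domain and truncated receptors without one, and the sources used here do not say which transcripts each probe set detects. 1370687_a_at was the brightest of the 5, with a mean of 8.90 ± 0.64, and read 8.50, 8.89 and 9.49 in pools of 100, 7.97, 9.14 and 8.75 in pools of 200, and 10.13, 8.32 and 8.93 in pools of 400. 1397246_at averaged 8.56 ± 0.60 and read 8.64, 8.34 and 8.71 in pools of 100, 9.19, 9.10 and 8.16 in pools of 200, and 7.27, 9.07 and 8.58 in pools of 400. In these probe sets 1 array, pool of 400 replicate 1, was the highest of 9 in the first and the lowest of 9 in the second.

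1368972_at averaged 8.30 ± 0.76 and ran from 6.92, in a pool of 100, to 9.16, in a pool of 400. 1370652_at was the dimmest, with a mean of 6.29 ± 0.78, a range of 5.23 to 7.68 and a median percentile of 19.2 among probe sets. The other 4 probe sets of Ntrk2 had median percentiles of 70.8 to 80.5. 1383135_at read 8.93, 8.60 and 8.94 in pools of 100, 8.31, 8.82 and 5.79 in pools of 200, and 6.41, 8.35 and 7.20 in pools of 400. Each pool of 400 was below each pool of 100 in this probe set, as in 2.96% of all probe sets. The SD of 1383135_at, 1.17, was larger than that of 96.0% of all probe sets. Here the SD was 0.19 in pools of 100, 1.62 in pools of 200 and 0.98 in pools of 400.

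**Figure D2:**
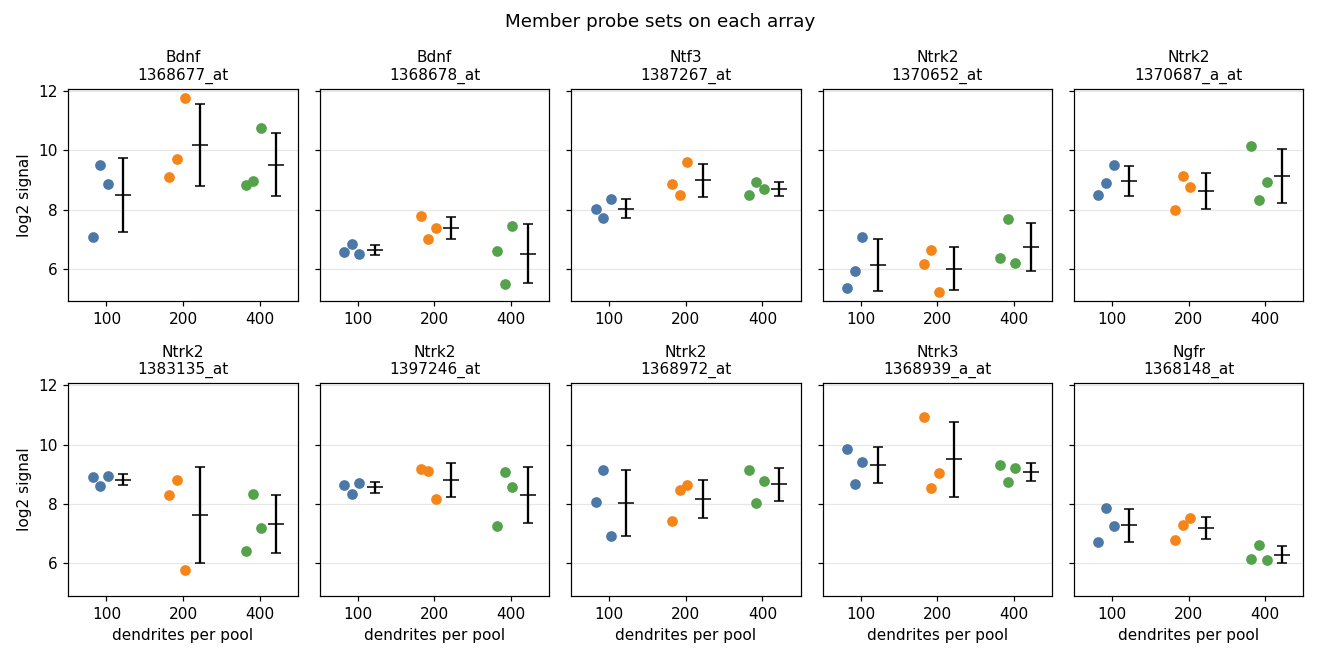
The log2 signal (vertical axis) of the 10 member probe sets on each array, by number of dendrites per pool (horizontal axis), with 1 point per array in the order of the replicate numbers and, in black, the mean and SD of 3 arrays. The brighter Bdnf probe set spans 7.08 to 11.75, and the 5 probe sets of Ntrk2 differ in level and in which arrays are low.

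Correlations among the 5 probe sets of Ntrk2 took both signs. Over the 10 pairs, Pearson r ran from -0.72, between 1370687_a_at and 1397246_at, to 0.68, between 1383135_at and 1397246_at, with a median of -0.08 and 5 pairs below 0. Of the 11 pairs of probe sets of 1 gene, Bdnf included, 0 passed the threshold of 0.05 after adjustment, and 2 had an unadjusted exact permutation p under 0.05 by Pearson and 1 by Spearman. Both of these Pearson values rested on 2 arrays each. Without the 2 arrays farthest from the median of the first probe set of the pair, r was -0.02 for 1370687_a_at and 1397246_at and 0.10 for 1383135_at and 1397246_at, over 7 arrays. After subtraction of the mean of each pool size, r was -0.69 and 0.85 for the same pairs over all 9 arrays. The pair of lowest Spearman rho was 1397246_at and 1368972_at, at -0.78 (exact permutation p = 0.0172, adjusted p = 0.189).

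Correlations of both signs were general among probe sets of 1 gene in these arrays. Over the 9597 pairs of probe sets of 1 gene, from 4525 genes, the median r was 0.0061 and 49.5% of pairs were below 0, with the 5th and 95th percentiles at -0.61 and 0.64. The pairs share arrays and genes, and the values are a description. By the same scale the Bdnf pair, at 0.48, lay above the median and below the 95th percentile, while the 2 lowest and the highest Ntrk2 pair lay outside the range between these 2 percentiles.

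**Figure D3:**
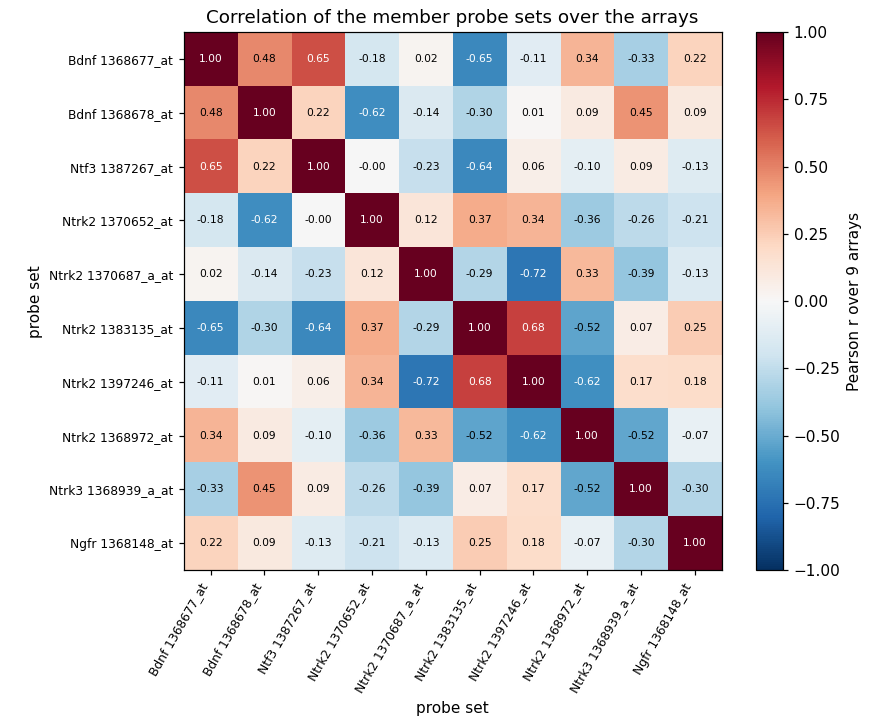
Pearson r over 9 arrays between the 10 member probe sets, named on both axes, with the value in each cell and the colour scale from -1 (blue) to 1 (red). The block of the 5 Ntrk2 probe sets holds values from -0.72 to 0.68, and the 2 Bdnf probe sets share an r of 0.48.

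Ntrk3, which encodes TrkC, was represented by 1368939_a_at, a probe set designed to detect several transcripts of its gene. It read 9.85, 8.66 and 9.42 in pools of 100 dendrites, 10.92, 8.54 and 9.06 in pools of 200, and 9.31, 8.73 and 9.22 in pools of 400, with a mean of 9.30 ± 0.73 (SD, n = 9). The highest and the lowest array were both pools of 200, and the 3 pool sizes overlapped throughout. Ngfr, which encodes p75, was represented by 1368148_at. It read 6.73, 7.85 and 7.27 in pools of 100, 6.80, 7.28 and 7.52 in pools of 200, and 6.16, 6.62 and 6.11 in pools of 400, with a mean of 6.93 ± 0.60 (SD, n = 9). The 3 pools of 400 were the 3 lowest of the 9 arrays, while the pools of 100 and 200 overlapped. Of all genes, 2.58% had every pool of 400 below every pool of 100, and 3.18% below every pool of 200. The share with both was not counted.

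Whether pool size was accompanied by a difference in these mRNAs was tested with limma over all 9 arrays. No member passed an adjusted p of 0.05 in any contrast, and 0% of all 14217 genes did. For pools of 400 against pools of 100, 1 of the 5 genes had an unadjusted p under 0.05, beside 2.41% of all genes. For 200 against 100 dendrites 2 of the 5 did, beside 3.03%, and for 400 against 200 dendrites 1 of 5 did, beside 2.3%. Of the 10 probe sets 1, 1 and 0 did in the same contrasts, beside 2.21%, 2.87% and 2.04% of all probe sets. The gene values had a median SE of 0.45 log2 units per contrast over all genes, so that a difference of this size was not detectable with 3 arrays per pool size.

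Among the 5 genes, Bdnf and Ntf3 had the highest differences for pools of 200 against pools of 100, whereas Ntf4, the other ligand measured, averaged 7.92 ± 0.65 in pools of 200, against 8.27 ± 0.32 in pools of 100 (limma, adjusted p = 0.9999). Bdnf averaged 8.78 ± 0.68 in pools of 200, against 7.56 ± 0.68 in pools of 100 (SD of 3 arrays each), which is a log2 difference of 1.23 (95% interval 0.01 to 2.44, limma, unadjusted p = 0.0485, adjusted p = 0.9999). Ntf3 averaged 8.99 ± 0.56 in pools of 200, against 8.04 ± 0.32 in pools of 100, which is a log2 difference of 0.95 (interval 0.10 to 1.80, limma, unadjusted p = 0.0311, adjusted p = 0.9999). In the gene values of both, every pool of 200 was above every pool of 100, which held for 4.05% of all genes. The brighter Bdnf probe set, 1368677_at, overlapped between these pool sizes. Its difference was 1.70 (interval -0.08 to 3.47, limma, unadjusted p = 0.0599). That of the dimmer one, 1368678_at, was 0.76 (interval -0.33 to 1.84, limma, unadjusted p = 0.154). Without pool of 200 replicate 3, which was the highest of the 9 arrays in both genes, the difference was 0.84 for Bdnf and 0.64 for Ntf3.

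Against the pools of 100, the pools of 400 differed by 0.66 in Ntf3 (interval -0.19 to 1.51) and by 0.45 in Bdnf (interval -0.76 to 1.67). Every pool of 400 was above every pool of 100 in Ntf3, as in 3.67% of all genes, whereas Bdnf overlapped. By single probe sets, the Bdnf difference was 1.03 in 1368677_at (interval -0.75 to 2.81) and -0.13 in 1368678_at (interval -1.21 to 0.96). Its sign thus depended on the probe set. Without pool of 400 replicate 3 the difference in the Bdnf gene value was -0.094. Between pools of 400 and pools of 200, the difference was -0.77 in Bdnf (interval -1.99 to 0.44), and -0.29 in Ntf3 (interval -1.14 to 0.56). The Bdnf value was -0.38 without pool of 200 replicate 3, also -0.38 without pool of 400 replicate 2, and -1.32 without pool of 400 replicate 3. The Ntf3 value was 0.019 without pool of 200 replicate 3.

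Ngfr, which has 1 probe set, gave the largest difference between pools of 400 and pools of 100 among the 5 genes. In the pools of 400 it stood at percentiles of 13.7, 24.6 and 13.0, low signals that cannot be told from background. It averaged 6.30 ± 0.28 in pools of 400, against 7.28 ± 0.56 in pools of 100, which is a log2 difference of -0.99 (interval -1.85 to -0.12, limma, unadjusted p = 0.0290, adjusted p = 0.999). Every pool of 400 was below every pool of 100, as in 2.58% of all genes. For 400 against 200 dendrites, where the pools of 200 averaged 7.20 ± 0.36, the difference was -0.90 (interval -1.77 to -0.04, limma, unadjusted p = 0.0422, adjusted p = 0.999), again with no overlap, as in 3.18% of all genes. With pool size as a number, its probe set changed by -0.49 log2 units per doubling of the dendrites (interval -0.94 to -0.04, limma, unadjusted p = 0.0340, adjusted p = 0.9998), 1 of the 10 probe sets being under 0.05 in this test beside 2.46% of all. The 400-against-100 difference lay between -1.26 and -0.70 when each array was left out in turn. Markers of Schwann and olfactory ensheathing cells, which are known to carry p75, had a mean signal per array of 8.20 to 8.57 in pools of 100, 8.42 to 8.75 in pools of 200 and 7.88 to 8.48 in pools of 400, over 5 of 6 listed genes. Prx, a Schwann cell myelin protein, lay at a median percentile of 97.6 and Pmp22, another myelin protein, at 34.3. The transcription factor Sox10, which is also in the list of oligodendrocyte lineage markers, lay at 73.7. The part of these markers in the Ngfr result was not tested.

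For the Trk receptors the intervals of all 3 differences held 0. Ntrk2 averaged 8.06 ± 0.70 in pools of 400, against 8.61 ± 0.10 in pools of 100, a difference of -0.55 (interval -1.46 to 0.37), which was -0.15 without pool of 400 replicate 1. By single probe sets the same contrast ran from -1.50 in 1383135_at (interval -3.11 to 0.10) to 0.62 in 1368972_at (interval -0.66 to 1.90) and 1370652_at (interval -0.65 to 1.90), so that the sign depended on the probe set. Of the Ntrk2 probe sets, 1383135_at was the one in which every pool of 400 was below every pool of 100, as in 2.96% of all probe sets. Ntrk3 differed by -0.22 for 400 against 100 (interval -1.47 to 1.03), by 0.20 for 200 against 100 (interval -1.05 to 1.45) and by -0.42 for 400 against 200 (interval -1.67 to 0.83). Astrocytes are known to carry truncated TrkB, and the mean signal of 10 of 11 listed astrocyte markers ran from 7.69 to 8.33 in pools of 100, from 6.97 to 8.22 in pools of 200 and from 7.10 to 8.23 in pools of 400. Their part in the Ntrk2 values was not tested.

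**Figure D4:**
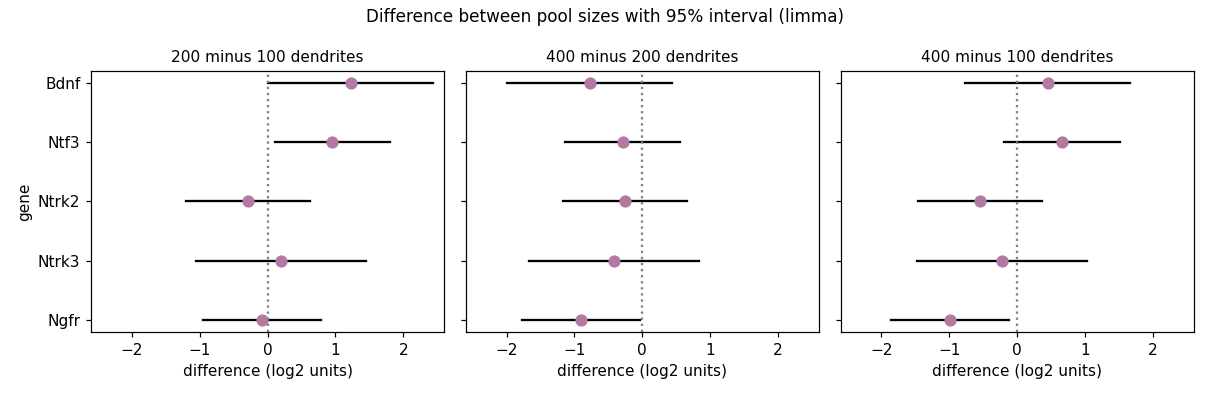
Difference in log2 signal between pool sizes (horizontal axis, log2 units, larger pool minus smaller pool) for the 5 genes, with points at the limma estimate and lines for the 95% interval. Intervals that leave out 0 are those of Bdnf and Ntf3 for 200 minus 100 dendrites and of Ngfr for 400 minus 200 and 400 minus 100 dendrites, and no adjusted p passed 0.05.

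No correlation among the ligands and receptors passed the test. Among the 10 pairs of member genes, 0 had an adjusted or unadjusted exact permutation p under 0.05. The highest correlation was that of Bdnf and Ntf3, with Pearson r = 0.57 (exact permutation p = 0.104, adjusted p = 0.907) and Spearman rho = 0.52 (exact permutation p = 0.162, adjusted p = 0.625). It rested on 2 arrays: without pool of 100 replicate 1 and pool of 200 replicate 3, r was -0.03, and within pool sizes it was 0.25. In gene values, the ligands and their Trk receptors were close to 0, with r = 0.02 for Bdnf and Ntrk2 and r = 0.09 for Ntf3 and Ntrk3. By single probe sets, r of Bdnf with Ntrk2 ran from -0.65 (1368677_at and 1383135_at) to 0.34 (1368677_at and 1368972_at). With Ngfr, r was 0.20 for Bdnf and -0.13 for Ntf3. The lowest of the 10 gene pairs was Ntrk2 and Ntrk3, at r = -0.35 (exact permutation p = 0.330, adjusted p = 0.907).

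Over the 9 arrays, the 3 genes of most similar pattern to Bdnf were Krtap1-1, Pip4k2b and Pmfbp1 (r = 0.93, 0.91 and 0.89). For Ntf3 they were Sfxn1, Rnmt and Cog1 (0.99, 0.96 and 0.94), for Ntrk2 Jam2, Pcbp3 and Tmx2 (0.97, 0.96 and 0.95), for Ntrk3 Kif3a, Krit1 and Twist2 (0.95, 0.94 and 0.94), and for Ngfr Akap12, Fzd2 and Celf4 (0.98, 0.95 and 0.95). With 14217 genes and 9 arrays, such values are common: the third most similar gene had a median r of 0.93 over all genes, with the 5th and 95th percentiles at 0.89 and 0.97.

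Further genes of the pathway, together with a list of other neurotrophic factor families, were described by rank in the same way. The 10 lists together held 151 genes, of which 128 were measured, that is, had a probe set naming only that gene. Of these, 76 lay above the 50th percentile and 6 in the top 5%, with a median percentile of 56.3, against 49.9 over all genes. None of the 128 passed the threshold in any contrast, whereas 4, 3 and 1 had an unadjusted p under 0.05 for 400 against 100, 200 against 100 and 400 against 200 dendrites, beside 2.41%, 3.03% and 2.3% of all genes.

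Sorting receptors and co-receptors were spread over the whole range, with 4 of 8 measured genes above the 50th percentile and a median of 46.9. Sorcs2, a partner of p75 in binding proBDNF, lay highest at 83.5 (8.75 ± 0.59 log2 units, SD, n = 9), followed by Sorl1 at 75.1 and the p75 homologue Nradd at 69.6. Lingo1, a co-receptor of p75, lay at 51.6. Sort1, which encodes sortilin, lay at 42.2 and averaged 7.26 ± 0.43, while Sorcs3 lay at 31.6, Rtn4r, the Nogo receptor, at 18.4, and Sorcs1 at 1.88.

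Among the genes that process and release the precursors, 9 of 16 lay above the 50th percentile. Cpe, carboxypeptidase E, which sorts proBDNF to the regulated secretory pathway, stood at 99.4, the highest rank of any gene in the 10 lists, with 12.26 ± 0.75 log2 units. Cadps, which primes dense-core vesicles for release, followed at 94.1, and the lowest was Plat, tissue plasminogen activator, at 6.68. Among the proteins that bind or transport Bdnf mRNA, 4 of 9 lay above the 50th percentile and the median was 40.6. Elavl3, a neuronal Hu protein, lay at 90.4 and Tsnax, the partner of translin, at 70.4, whereas Fmr1, which encodes the fragile X protein, lay at 3.02.

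Downstream of the Trk receptors, 13 of 24 adaptors and direct effectors lay above the 50th percentile. Gab1, a docking protein, stood at 98.0, and Plcg1, the phospholipase recruited by active Trk receptors, at 95.7, with the adaptor Frs3 lowest at 14.3. The PI3 kinase, Akt and mTOR branch had the highest median of the 9 lists of more than 1 gene, 75.2, with 17 of 19 genes above the 50th percentile. It was led by Eif4ebp2, a translation repressor controlled by mTOR, at 97.7, and Rheb, the GTPase that activates mTOR, at 92.4, and Tsc2, which restrains Rheb, was lowest at 14.5. In the Ras and MAP kinase branch 7 of 11 lay above the 50th percentile, from Rps6ka3 at 4.34 to Rap1a at 87.1 and Mapk7, the kinase ERK5, at 90.5. Among effectors of p75, 8 of 13 did, with Bex3 at 83.8, Nfkb1 at 82.9 and Rhoa at 10.8.

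Genes known to be induced by neurotrophins had the lowest median of the 10 lists, 38.5, with 5 of 13 above the 50th percentile. Spry4, an inhibitor of receptor tyrosine kinase signalling, lay at 96.8 and the immediate early gene Egr1 at 94.9, whereas Fos lay at 14.0.

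**Figure D5:**
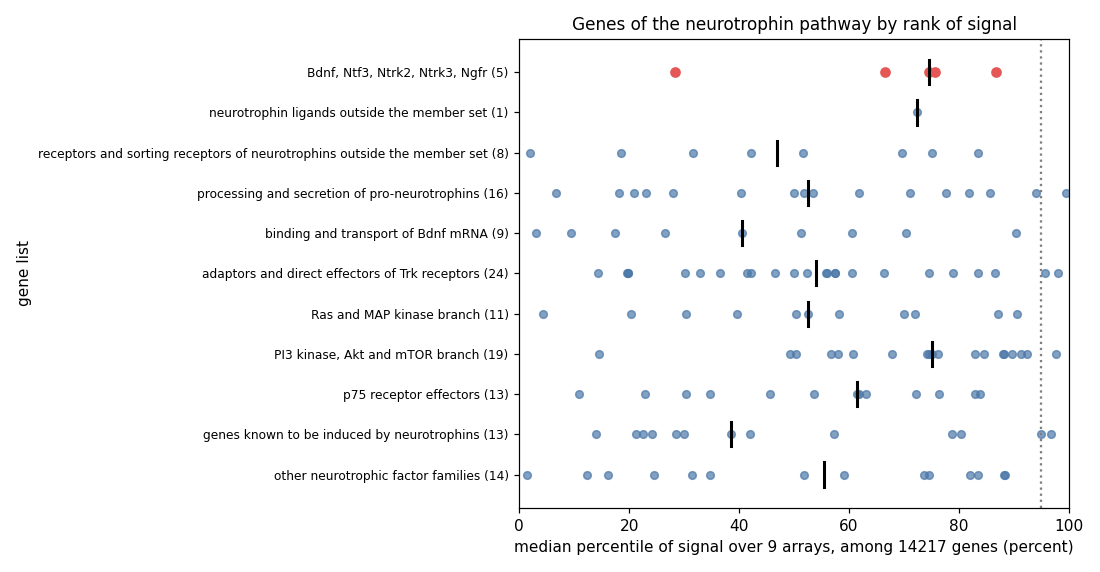
Median percentile of signal over 9 arrays (horizontal axis, percent) of each measured gene of the 10 lists and, at the top in red, of the 5 genes. A black bar marks the median of each list, and the number of measured genes is in parentheses. The lists include that of other neurotrophic factor families. The PI3 kinase, Akt and mTOR branch has a median of 75.2 and the induced genes one of 38.5.

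As a check of the label, 9 of 12 measured pyramidal neuron markers lay above the 50th percentile, with Neurod2 at 99.9 and Nrgn at 99.4 but Tbr1 at 2.44. Of the interneuron markers 4 of 9 did, from Slc32a1 at 11.6 to Sst at 64.6 and Calb2 at 86.7, and of the astrocyte markers 5 of 10, from Gjb6 at 3.02 to Slc1a3 at 86.9 and S100b at 90.1. Of the oligodendrocyte lineage markers 7 of 10 did, from Opalin at 14.3 to Mag at 75.9 and Olig2 at 79.5, and of the microglia markers 3 of 9, from Tyrobp at 7.07 to C1qb at 75.6 and C1qc at 80.3. Of the endothelial, mural and fibroblast markers 6 of 11 did, from Col1a2 at 5.24 to Esam at 98.5 and Vwf at 99.8. Median percentiles of the marker lists were 76.7 for pyramidal neurons, 61.5 for Schwann cells, 59.1 for astrocytes, 57.6 for the oligodendrocyte lineage, 52.6 for endothelial cells and fibroblasts, 36.9 for interneurons and 29.7 for microglia. The arrays correlated with the others at a mean r of 0.749 to 0.839, lowest in pool of 400 replicate 1. Gapdh probes at the 3′ end exceeded those at the 5′ end by 0.84 to 2.99 log2 units, highest in pool of 100 replicate 1. For beta-actin probes the same difference ran from -0.43, in pool of 200 replicate 1, to 2.41, in pool of 400 replicate 2.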

How the data were processed

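The authors deposited log2 probe set signals made with RMA, version 2.0 per the labels, after repeated linear amplification of the RNA. RMA corrects background, brings all arrays to a shared distribution and summarises each probe set over its probes. Array medians were 7.46 to 7.53. The centring and scaling named in the methods are not in these values and were tried as an alternative. Of 31099 probe sets, 57 controls served for quality only. Of the other 31042, 20826 named 1 gene, 436 several and 9780 none, and 20758 symbols were updated through their Entrez ID. No build is given in the sources used here, so no positions are printed.

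Pool sizes were compared with limma 3.58.1 in R 4.3.3, in 1 model of all 9 arrays without further filtering, with two-sided tests and Benjamini-Hochberg adjustment over all features at 0.05. Correlations over arrays were tested by two-sided exact permutation, and the remaining steps used Python 3.11.15. The number of arrays limits the precision. Fits were tested on simulated data.

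The members and lists were chosen with earlier results of these data known. All members, ligands and receptors are named, and of each other list the 2 genes of highest and the 1 of lowest median percentile. Alternatives were quantile normalisation, the methods' scaling, the brighter features only (those above the 50th percentile by mean signal), a variance trend, array weights, the methods' t-test, a replicate block, the brightest probe set per gene, and leaving out each array.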

Additional observations from a re-analysis of the deposited data

How the results depend on the processing

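No alternative gave a call for any of the 5 genes or 10 probe sets, and the lowest adjusted p of a gene difference was 0.870. Array weights moved the number of probe sets with an unadjusted p under 0.05 for 400 against 100 dendrites to 1565, against 687. The methods' t-test gave 0 calls at their false discovery rate and at 0.05. With the probe set of highest mean signal per gene in place of the median, the Ntrk2 difference turned to 0.17 for 400 against 100 and to 0.51 for 400 against 200 dendrites, where the median gave -0.55 and -0.26. The same choice turned the correlation of Ntrk2 and Ngfr to -0.13, against 0.47, and put Ntrk3, which has 1 probe set, at a percentile of 79.4, since the other genes were ranked differently. It put Bdnf at 78.1, against 66.5, Ntrk2 at 73.9, against 75.7, and Ntf3 at 65.8, against 74.5. Bdnf thus stood above Ntrk2 and Ntf3 under this choice. Ngfr has no value where the dimmer genes were left out.

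Leaving out each array in turn, the 400-against-100 difference ran from -0.094 to 0.85 in Bdnf and from -0.55 to 0.046 in Ntrk3. That for 200 against 100 ran from -0.36 to 0.20 in Ngfr and from -0.51 to 0.68 in Ntrk3. That for 400 against 200 ran from -0.53 to 0.019 in Ntf3, from -0.52 to 0.13 in Ntrk2 and from -0.90 to 0.29 in Ntrk3. The correlations that changed sign ran from -0.23 to 0.13 (Bdnf and Ntrk2), -0.34 to 0.10 (Bdnf and Ntrk3), -0.038 to 0.54 (Bdnf and Ngfr), -0.14 to 0.25 (Ntf3 and Ntrk3) and -0.60 to 0.32 (Ntf3 and Ngfr). The causes were not tested.

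Arrays with the same replicate number did not deviate together (correlations -0.20 to 0.09, 0 of 9 over 0.1). With so few arrays per pool size, low correlations cannot exclude a shared culture. The labels do not say whether the numbers pair the samples. With the replicate number as a block there were 0 calls, and 725, 909 and 634 probe sets had an unadjusted p under 0.05 for 400 against 100, 200 against 100 and 400 against 200 dendrites, where the fit without the block had 687, 891 and 634. The correlations between probe sets of 1 gene were recomputed under alternatives chosen after seeing the data, and 0 pairs passed.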

Other observations

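Of 14 measured genes of other neurotrophic factor families, 8 lay above the 50th percentile of signal, and the median was 55.5. Manf, a secreted factor of the endoplasmic reticulum, lay at a median percentile of 88.5 and averaged 9.00 ± 0.58 log2 units (SD, n = 9). Cntfr, the receptor for ciliary neurotrophic factor, lay at 88.1, with 9.33 ± 0.31, whereas its ligand Cntf lay at 1.33, with 5.22 ± 0.23. None of the 14 passed the test between pool sizes.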
